A study of Bos taurus with 20 samples.

Results

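The complement system was followed through 10 genes in maternal whole blood. Of the 37063 gene identifiers in the counts, these were C1QA, C1QB and C1QC, the chains of C1q, then C2, C3, CFB and CFP, the receptors C5AR1 and C3AR1, and the inhibitor gene SERPING1. The genes were taken as a list of cattle symbols and matched to Entrez identifiers with the gene table of the ARS-UCD2.0 assembly, and all 10 were found and passed the filter on low counts. Blood was collected on day 63 of gestation from 20 recipient cows, each carrying a female beef fetus from an in vitro embryo made with X-sorted semen and Angus oocytes. All cows formed 1 group without a treatment or a nonpregnant control, and what differed by design was calf birth weight (BW), from 30 to 72.5 kg. The study lists the recipients as Angus aged 1 to 9 years in a table and describes lactating dairy recipients in its text, so their breed is uncertain here. The whole blood of Tempus tubes, which lyse the cells and stabilize RNA, gave 1 library per cow.

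Complement is a cascade of plasma proteins and cell receptors that tags microbes, immune complexes and dying cells. C1q recognizes the target in the classical pathway and C1 cleaves C4 and C2, whereas factor B is the protease of the alternative pathway, which properdin stabilizes. Both pathways cleave C3, and the small fragments C3a and C5a act on receptors of leukocytes. The liver makes most of the C3 and factor B of plasma, whereas C1q and properdin come mainly from myeloid cells, so blood cell RNA does not measure the plasma proteins. In whole blood, fewer cells of a type and less RNA per cell cannot be told apart.

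Total counts per cow ranged from 24632077 to 39892111 (median 33412740). Markers of monocytes, neutrophils, B cells, T cells, natural killer cells, platelets and erythroid cells were present, while 0 of 5 hepatocyte markers passed the filter and AHSG had no count in any cow. Of the 7 eosinophil markers, 3 were found in the counts, of which CCR3 and ALOX15 had no count in any cow. The recipient of the 56 kg calf stood apart, with the lowest summed level of 7 monocyte markers (645 CPM against a median of 1126 CPM) and of 7 neutrophil markers (2931 against 4266 CPM). It also had the highest summed eosinophil level (200 against 58.7 CPM), all of it IL5RA, the interleukin-5 receptor chain. Several of the slopes and correlations that it moved are also given without it, but not all.

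Levels are CPM, the counts of a gene relative to the total of its library, scaled with TMM, which corrects for library composition. As lengths of transcripts were not used, CPM compares a gene between cows and not one gene with another. The most variable of the 10 genes was SERPING1 and the least variable C5AR1, with coefficients of variation of 66.9% and 13.6%. For 8 of the 10 genes the coefficient was above the median of 15.6% over 16269 genes.

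C1QA averaged 25.8 ± 6.81 CPM (SD, n = 20), between 13.4 CPM in the recipient of the 46 kg calf and 35.9 CPM in that of the 43 kg calf, with a median of 26.5. C1QB averaged 124 ± 32.5 CPM (SD, n = 20), with a lowest value of 64.1, a median of 127 and a highest value of 179 CPM. C1QC averaged 26.3 ± 6.44 CPM (SD, n = 20), with a lowest value of 13, a median of 26.3 and a highest value of 36.2 CPM. The recipients of the 46 and 56 kg calves were the lowest pair for all 3 chains. The recipient of the 43 kg calf was the highest for C1QA and C1QB and the second highest for C1QC, after that of the 45 kg calf.

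C3, the central component cleaved by both pathways, averaged 126 ± 29.4 CPM (SD, n = 20). Its lowest value was 75.1 CPM in the recipient of the 56 kg calf, its median 123 and its highest 182 CPM in the recipient of the 37 kg calf. C2, the protease of the classical C3 convertase, averaged 26.1 ± 9.59 CPM (SD, n = 20), with a lowest value of 12.8, a median of 26.1 and a highest value of 55.6 CPM. The recipient of the 37 kg calf lay well above the next one for C2, at 34.4 CPM. CFB, which encodes factor B, averaged 2.94 ± 1.20 CPM (SD, n = 20), from 1.03 CPM in the recipient of the 41.5 kg calf through a median of 2.74 to 5.89 CPM, again in the recipient of the 37 kg calf. CFP, which encodes properdin, averaged 80.8 ± 11.5 CPM (SD, n = 20), with a lowest value of 54.9, a median of 82.8 and a highest value of 97.3 CPM. The lowest CFP was in the recipient of the 56 kg calf.

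C5AR1, the C5a receptor of neutrophils and monocytes, averaged 224 ± 30.5 CPM (SD, n = 20), between 160 CPM in the recipient of the 45 kg calf and 279 CPM in that of the 50 kg calf (median 217). C3AR1, the C3a receptor, averaged 5.11 ± 1.3 CPM (SD, n = 20), from 3.02 through a median of 5.23 to 7.60 CPM. The highest value was once more in the recipient of the 37 kg calf, which was the highest cow for C2, C3, CFB and C3AR1. SERPING1, which encodes the C1 inhibitor of C1r and C1s, averaged 1.04 ± 0.70 CPM (SD, n = 20). It had no count in the recipient of the 56 kg calf, where 3 counts would be 0.117 CPM, a median of 0.98 CPM and a highest value of 3.08 CPM in the recipient of the 46 kg calf. With at most 100 counts in a cow, SERPING1 was the least precisely measured of the 10 genes.

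**Figure D1:**
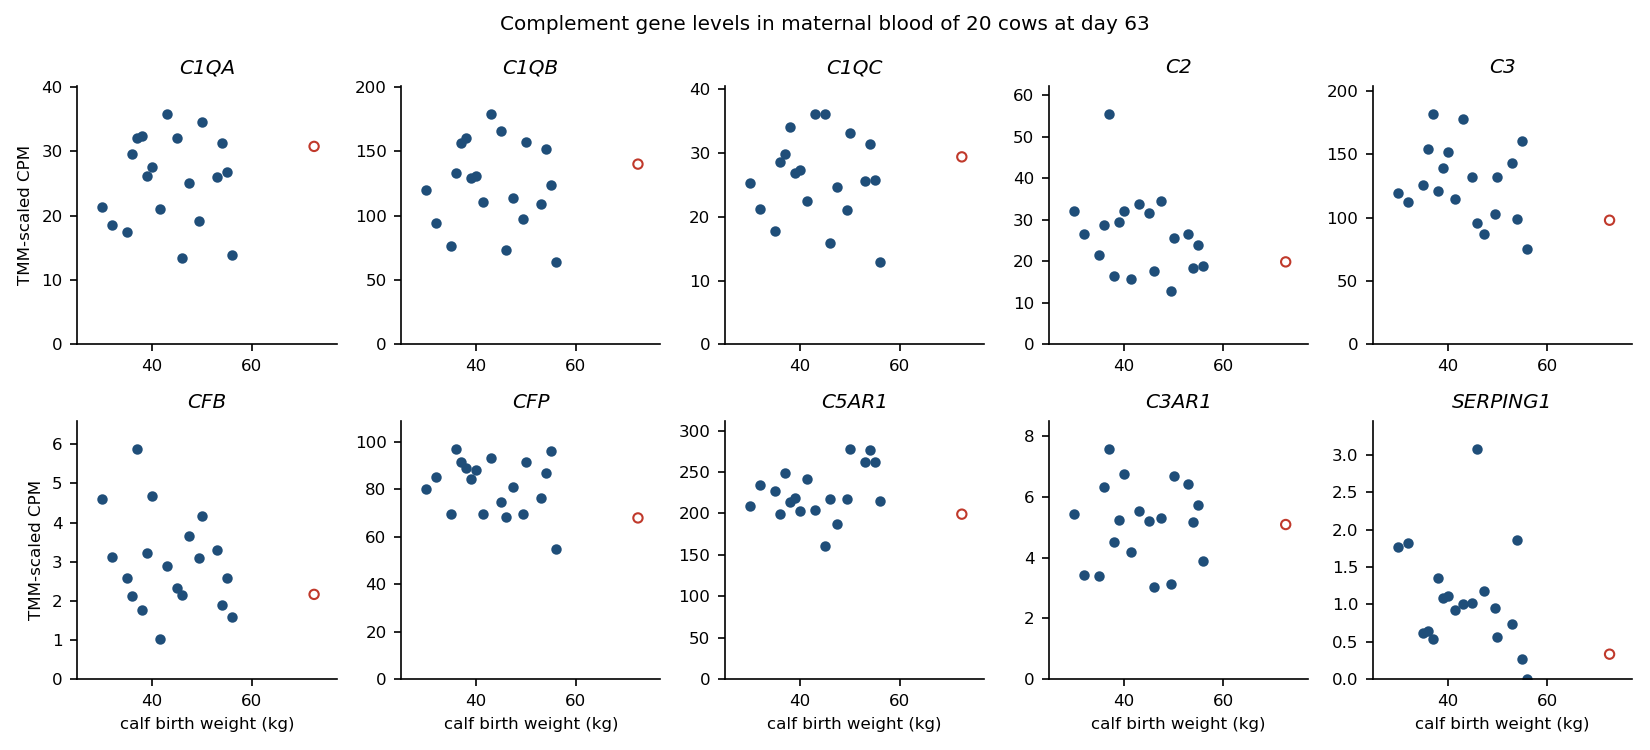
TMM-scaled CPM (vertical axes, each starting at 0) of the 10 genes in the blood of 20 cows against the birth weight of the calf in kg, 1 point per cow. The open red circle is the recipient of the 72.5 kg calf, which the slopes leave out; the slopes over the 19 filled points have intervals that hold 0 for all 10 genes, and C2, C3, CFB and C3AR1 have their highest value in the recipient of the 37 kg calf.

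The 3 chains of C1q kept nearly fixed proportions. The ratio of C1QB to C1QA counts was 4.85 ± 0.367 (SD, n = 20) and lay between 4.19 and 5.62, although C1QB itself differed 2.80-fold between the lowest and the highest cow. The ratio of C1QC to C1QA was 1.03 ± 0.081 (SD, n = 20), and that of C1QB to C1QC was 4.72 ± 0.231 (SD, n = 20). On the log2 scale the last ratio had an SD of 0.071, against an SD of 0.41 for the level of C1QB. Counting alone would give 0.057 if every count were 1 independent fragment, and 0.08 if the 2 mates of each fragment had been counted separately, which the sources used here do not state. The other 2 ratios had a larger log2 SD than counting under either reading. For C1QC to C1QA with mates counted separately the gap was small, and it was not tested. C1QB to C1QA had a log2 SD of 0.108 against 0.057, or 0.081 with mates counted separately. C1QC to C1QA had 0.111 against 0.073, or 0.104. By contrast, the ratio of C2 to CFB was 9.42 ± 2.67 (SD, n = 20) and spread from 4.13 to 15.2, with a log2 SD of 0.43 against 0.17 from counting, or 0.24 with mates counted separately. The proteins of C2 and factor B are related proteases, and their genes lie next to each other.

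Correlations were computed for the 45 pairs of the 10 genes on log2 CPM over 20 cows, with permutation p-values adjusted by the Benjamini-Hochberg method over the 45 pairs. Of these pairs, 19 had an adjusted p below 0.05 by Pearson, 17 by Spearman and 16 by both. The median r over the 45 pairs was 0.43, whereas it was -0.002 over all pairs of the 16269 genes. An r of 0.5 or more was found in 42.2% of these pairs and in 3.62% of all pairs. Points of these correlations share the library and the cell composition of each cow.

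C1QB and C1QC had an r of 0.99 (rho 0.99, adjusted permutation p = 0.00015), C1QA and C1QB of 0.97 (rho 0.98) and C1QA and C1QC of 0.97 (rho 0.98), both with the same adjusted permutation p, the smallest that the permutations gave. Each chain had the other chains at places 1 and 2 among 16268 genes ordered by r. Without the 2 cows farthest from the median, those of the 46 and 56 kg calves, the 3 values were between 0.95 and 0.98.

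C1QA, C1QB, C1QC, C3, CFP and C3AR1 formed a set of 6 genes in which all 15 pairs passed by Pearson, with a lowest r of 0.58, and 14 by Spearman. C1QA and C3AR1 had an r of 0.78 (rho 0.62, adjusted permutation p = 0.000787), and C3 and CFP an r of 0.73 (rho 0.72, adjusted permutation p = 0.00202). C1QB and CFP had an r of 0.72 (rho 0.61, adjusted permutation p = 0.0022). These relations were unequal in how far r moved when cows were left out. C1QA and C3 had an r of 0.59 (rho 0.55, adjusted permutation p = 0.0168), which was 0.38 without the 2 recipients of the 46 and 56 kg calves (permutation p = 0.121, unadjusted). For C1QB and C3 the value fell from 0.58 to 0.35 (permutation p = 0.154) and for C1QC and C3 from 0.58 to 0.31 (permutation p = 0.204), so that the relation of C1q with C3 rested on those cows. C1QA kept an r of 0.54 with CFP (permutation p = 0.0221) and of 0.73 with C3AR1 (permutation p = 0.00066) without them. C3 and CFP had an r of 0.62 without the recipient of the 56 kg calf alone.

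C2 and CFB had an r of 0.71 (rho 0.70, adjusted permutation p = 0.00258), which was 0.79 (permutation p = 0.00012) without the recipients of the 37 and 49.5 kg calves, the farthest from the median of C2. C2 also had an r of 0.71 with C3AR1 (rho 0.69, adjusted permutation p = 0.00202) and of 0.59 with C3 (rho 0.50, adjusted permutation p = 0.0168), the latter not past the threshold by Spearman (adjusted permutation p = 0.0615). The r of C2 with C3 was 0.49 without the recipient of the 37 kg calf (adjusted permutation p = 0.0792). C2 and CFP passed only by Pearson, with an r of 0.52 (adjusted permutation p = 0.046), and 16 of 23 alternatives lost this call. CFB and C3AR1 passed only by Spearman (rho 0.58, adjusted permutation p = 0.0291; r 0.48, adjusted permutation p = 0.0707).

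C5AR1 passed with none of the other 9 genes, its r lying between -0.16 and 0.21 (lowest adjusted permutation p = 0.509). C5AR1 and C3AR1, the receptors of C5a and C3a, had an r of 0.12 (adjusted permutation p = 0.75). SERPING1 likewise passed with none, with an r between -0.13 and 0.36 (lowest adjusted permutation p = 0.214). The highest of these, with CFP, had a rho of 0.01. It was -0.37 without the recipients of the 56 and 72.5 kg calves, the farthest from the median of CFP. A p above the threshold in 20 cows does not show that these genes varied independently.

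**Figure D2:**
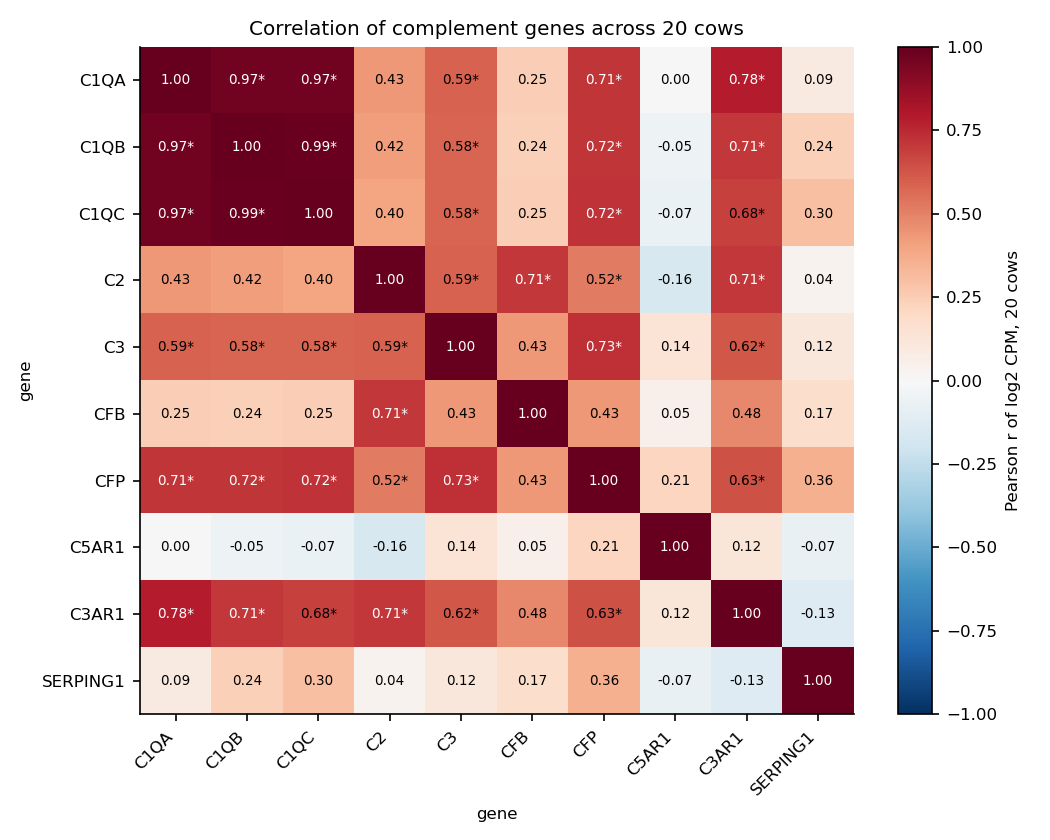
Pearson r of log2 CPM for each pair of the 10 genes over 20 cows, from blue (-1) through white (0) to red (1); an asterisk marks an adjusted permutation p below 0.05 over the 45 pairs. The C1q chains form the darkest block at 0.97 to 0.99, C3, CFP and C3AR1 join them at 0.58 to 0.78, and the rows of C5AR1 and SERPING1 hold no asterisk.

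In the gene table of ARS-UCD2.0, the genes lie on chromosomes 2 (C1QA, C1QB and C1QC), 23 (C2 and CFB), 7 (C3), X (CFP), 18 (C5AR1), 5 (C3AR1) and 15 (SERPING1). The reads were aligned to another build, so only the order of genes was used. The C1q genes lie together with an unnamed protein-coding gene, LOC112443416, between C1QB and C1QC. This gene had 2.26 ± 0.844 CPM (SD, n = 20) and an r of 0.81 with C1QB and 0.79 with C1QC. Since the strand setting and the handling of reads shared by genes are not given in the sources used here, whether its counts include reads of its neighbours was not tested. ZBTB12, next to C2, had an r of 0.24 with C2, and NELFE, next to CFB, an r of 0.37 with CFB, both below the 0.71 of C2 with CFB. C5AR2, the second C5a receptor and the neighbour of C5AR1, averaged 6.74 ± 1.44 CPM (SD, n = 20) and had an r of 0.49 with C5AR1. UBE2L6, an interferon-induced ubiquitin-conjugating enzyme beside SERPING1, had an r of -0.05 with it. These r values describe 20 cows and were not tested.

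For each gene up to 3 genes most like it are given by r over 20 cows, leaving out the other complement genes of the set. They describe these cows and were not tested. LOC100850659, an unnamed gene, had an r of 0.89 with C1QB and C1QC and of 0.85 with C1QA. SH2D1B, a signalling adaptor of lymphocytes, had an r of 0.84 with C1QA, and NR1H3, the liver X receptor alpha of macrophages, one of 0.84 with C1QB and 0.87 with C1QC. LOC100850659 averaged 14.1 ± 4.94 CPM (SD, n = 20), with a lowest value of 5.71 and a highest value of 23.6 CPM.

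BATF2, a transcription factor induced by interferon in macrophages, was the most like both C2 (r 0.87, rho 0.89) and CFB (r 0.83, rho 0.78). Both values exceeded the r of 0.71 between C2 and CFB themselves, a difference that was not tested. BATF2 averaged 7.32 ± 2.42 CPM (SD, n = 20), with a lowest value of 3.88, a median of 7.03 and a highest value of 12.4 CPM. ACSL5, a fatty acid ligase, and PSMD4, a proteasome subunit, followed for C2, each with an r of 0.82. MCOLN1, a lysosomal cation channel (r 0.82), and SERPINB6, an intracellular protease inhibitor (r 0.79), followed for CFB.

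C3 was most like PEPD, a dipeptidase, MYOF, a membrane repair protein, and TNFAIP2, each with an r of 0.87. CFP was most like IER5L (r 0.89), MVP, the major vault protein, and PLEKHO2, both with an r of 0.86. C5AR1 was most like MXD1, a MAX-binding repressor abundant in neutrophils, with an r of 0.93 (rho 0.92), then USP32 (r 0.88) and VNN2 (r 0.87). C3AR1 was most like TNFSF13B, the B-cell activating factor made by myeloid cells (r 0.84), VASH1 (r 0.83) and NOTCH3 (r 0.81). For SERPING1 the highest r was 0.77 with SLC27A2, where rho was 0.44, so the ranks followed each other less closely. LOC789005 followed for SERPING1 with an r of 0.76 but a rho of 0.26, and LOC132343891 with an r of 0.75 and a rho of 0.63. The recipient of the 56 kg calf had no count of SERPING1 or SLC27A2 and 1 count of LOC789005, the lowest value of each. These r values were not computed without this cow, so they cannot be read apart from it.

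**Figure D3:**
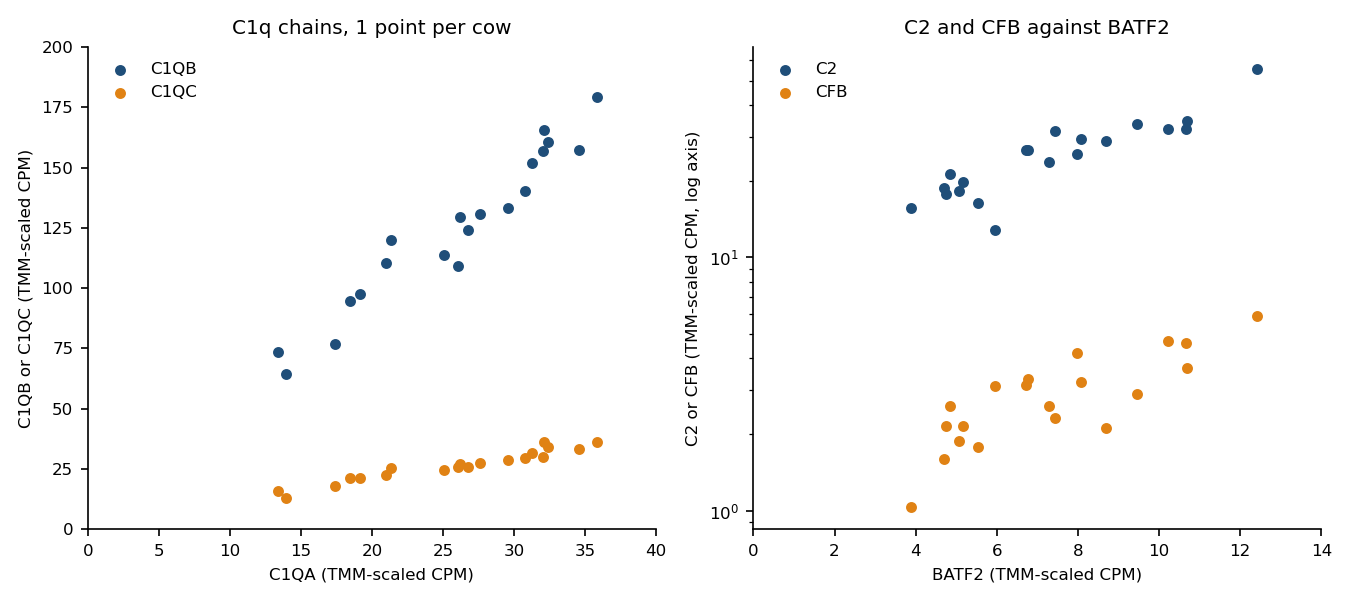
Left, TMM-scaled CPM of C1QB (blue) and C1QC (orange) against C1QA, and right, CPM of C2 (blue) and CFB (orange) on a log axis against CPM of BATF2, 1 point per cow in 20 cows. C1QB and C1QC follow C1QA along narrow lines (r 0.97 for both), while C2 and CFB rise with BATF2 with more spread (r 0.87 and 0.83).

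Each gene was then set beside scores of 9 marker lists, a score being the mean z-score of the list's genes in a cow. Of the 90 pairs of gene and score, 7 passed by Pearson, 5 by Spearman and 4 by both, after adjustment over the 90. The share of all genes that would pass with the same scores was not computed, so these counts do not show a trait particular to complement genes. CFP had an r of 0.82 with the monocyte score (rho 0.70, adjusted permutation p = 0.0021), and C3 one of 0.75 (rho 0.74, adjusted permutation p = 0.0021). C3AR1 had an r of 0.63 (rho 0.68, adjusted permutation p = 0.0375). C1QA, C1QB and C1QC passed by Pearson, with r 0.71, 0.63 and 0.68, but not by Spearman. Without the recipients of the 46 and 56 kg calves the r of C1QA, C1QB and C1QC with this score was 0.39, 0.21 and 0.22. These Pearson values were thus lower without those cows, the farthest from the median of the score. Its range narrows when they are left out, which can lower r by itself. For CFP, C3 and C3AR1 the r without them was 0.67, 0.62 and 0.53 (unadjusted permutation p = 0.00313, 0.00579 and 0.0242). With 1 cow left out at a time, CFP passed the adjusted threshold in every case. C3 lost the call without the recipient of the 56 kg calf (r 0.65, adjusted permutation p = 0.0606), and C3AR1 lost it in 11 of 20 cases, with a highest adjusted permutation p = 0.179 without the recipient of the 46 kg calf.

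C5AR1 had an r of 0.78 with the neutrophil score (rho 0.78, adjusted permutation p = 0.0021), and of 0.75 without the recipients of the 45 and 56 kg calves (permutation p = 0.00036). It was the gene that passed with the neutrophil score, and it did not pass with the monocyte score (r 0.35). CFP and the platelet score passed by Spearman alone (rho 0.68, adjusted permutation p = 0.029; r 0.59, adjusted permutation p = 0.0736). For C1QA, C1QB and C1QC the r with the platelet score was 0.40, 0.41 and 0.37. Without the 2 cows farthest from the median of that score it was 0.59, 0.63 and 0.62. The r without those cows was 0.66 for C2, 0.61 for C3, 0.76 for CFP and 0.59 for C3AR1, each higher than with them. For C5AR1 it fell from 0.57 to 0.25. These changes were not tested. No gene passed with the T cell, B cell, natural killer cell, erythroid, tissue macrophage or interferon-stimulated scores. The tissue macrophage score held 3 of its 4 markers, led by MRC1 with 15.8 ± 3.85 CPM (SD, n = 20).

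The interferon score, of 42 interferon-stimulated genes, had an r between -0.05 and 0.41 with the 10 genes, and 0 of 10 passed (lowest adjusted permutation p = 0.366). C2 had an r of 0.41 with it (rho 0.51) and CFB one of 0.39 (rho 0.42). For C3 and C3AR1 the r was 0.26 and 0.27 and rho 0.52 and 0.48. Over the 10 genes rho lay between -0.07 and 0.52, and none passed by Spearman (lowest adjusted permutation p = 0.203). The score was 2.98 in the recipient of the 30 kg calf and 0.61 in the next highest cow, so r leans on 1 cow. The recipient of the 30 kg calf had the highest summed level of the interferon list, 14164 CPM against a median of 6537 CPM. In this cow CFB was the third highest of 20 cows at 4.59 CPM, and C2 and SERPING1 were each the fourth highest, at 32.2 and 1.77 CPM. C1QA took place 14, C1QB and C3 place 12 and C5AR1 place 14 from the highest.

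**Figure D4:**
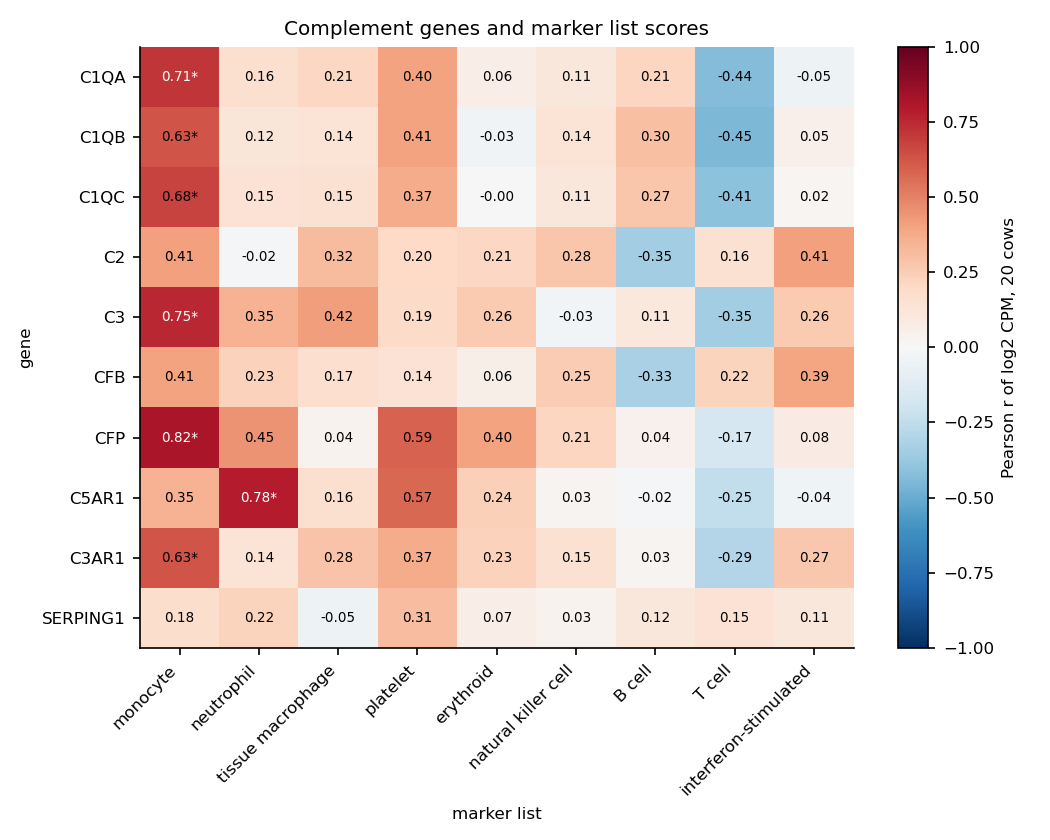
Pearson r over 20 cows of log2 CPM of the 10 genes (rows) with 9 marker list scores (columns), from blue (-1) to red (1); an asterisk marks an adjusted permutation p below 0.05 over the 90 pairs. The asterisks lie in the monocyte column for the C1q chains, C3, CFP and C3AR1 and in the neutrophil column for C5AR1.

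The slope of each gene on calf BW asked whether complement RNA in early gestation went with a heavier calf. It was fitted with the quasi-likelihood test of edgeR in 19 cows, without the 72.5 kg calf, on 16206 genes, and is given as log2 fold change per kg. None of the 10 genes had a false discovery rate (FDR, Benjamini-Hochberg over all genes tested) below 0.05, nor did any of all genes tested (0%). With DESeq2, 0 of 10 passed, against 0.819% of all genes tested, and with voom 0 of 10 passed as well. An unadjusted p below 0.05 by edgeR was found in 0 of 10, against 13.9% of all genes (7.08% with a negative and 6.78% with a positive slope). The slope was below 0 in 8 of the 10 genes, against 53.4% of all genes. Of these 8, C3AR1 lay at -5.5e-05 per kg, and C1QB and C1QC had an r of 0.99 with each other. Without the recipient of the 56 kg calf the slopes of C1QB, C1QC and C3AR1 were above 0. The count of 8 thus leans on this cow, and it was not tested against the share of all genes. The median slope was -0.0055 per kg for the 10 genes and -0.00072 per kg for all genes.

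C2 had the lowest p, with a slope of -0.0245 ± 0.0135 (SE) per kg (unadjusted p = 0.0833 and FDR 0.439 by edgeR). Over the 26 kg between the lightest and the heaviest calf of the test, this fit is a ratio of 0.643, with a 95% interval from 0.388 to 1.07. The slope of C2 was -0.0278 without the recipient of the 38 kg calf (unadjusted p = 0.046 by edgeR), -0.0151 without that of the 37 kg calf (unadjusted p = 0.208) and -0.0149 with the interferon score as a covariate (unadjusted p = 0.365). CFB had a slope of -0.022 ± 0.0163 (SE) per kg (unadjusted p = 0.192 and FDR 0.593 by edgeR), a ratio of 0.673 over the same span with an interval from 0.365 to 1.24. Its slope was -0.0139 without the recipient of the 37 kg calf, -0.0156 without that of the 56 kg calf and -0.0065 with the interferon score as a covariate. C3 had a ratio of 0.802 (0.564 to 1.14) and CFP one of 0.892 (0.714 to 1.11), with unadjusted p-values of 0.207 and 0.298 by edgeR. Without the recipient of the 56 kg calf the slope of C3 moved from -0.0122 to -0.0055 and that of CFP from -0.0063 to -0.00082 per kg, whereas without that of the 55 kg calf they were -0.0191 and -0.0102 per kg (unadjusted p = 0.0592 and 0.103 by edgeR). With the monocyte score as a covariate the slopes of C3 and CFP were -0.0068 and -0.0027 per kg.

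The C1q chains were near 0. The ratio over 26 kg was 1.01 for C1QA (0.644 to 1.59), 0.919 for C1QB (0.589 to 1.43) and 0.929 for C1QC (0.611 to 1.41), so changes within these bounds in either direction could not be told from no change. For C3AR1 the ratio was 0.999 (0.65 to 1.54; unadjusted p = 0.996 by edgeR). Without the recipient of the 56 kg calf the slopes of C1QA, C1QB and C1QC were 0.0098, 0.0045 and 0.0054 per kg, against 0.00072, -0.0047 and -0.0041 with it (lowest unadjusted p without it = 0.405 by edgeR), and that of C3AR1 was 0.0046. C1QA, C1QB, C1QC and C3AR1 changed the sign of their slope under some alternatives.

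C5AR1 was the gene with the larger positive slope, 0.0076 ± 0.0053 (SE) per kg (unadjusted p = 0.168 and FDR 0.566 by edgeR), a ratio of 1.15 (0.94 to 1.40) over the span. With the neutrophil score as a covariate its slope was 0.0116 per kg, with an unadjusted p of 0.00056 and an FDR of 0.137 by edgeR. Without the recipient of the 56 kg calf it was 0.0097 per kg, and with all 20 cows 0.0027 per kg (unadjusted p = 0.542 by edgeR), both without a covariate. SERPING1 had the widest interval, with a ratio of 0.564 (0.179 to 1.78; unadjusted p = 0.312 by edgeR). Its slope was -0.0317 per kg and -0.0144 without the recipient of the 56 kg calf, which had no SERPING1 count. It was -0.0196 and -0.0558 without the recipients of the 55 and 54 kg calves and -0.0568 with voom.

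**Figure D5:**
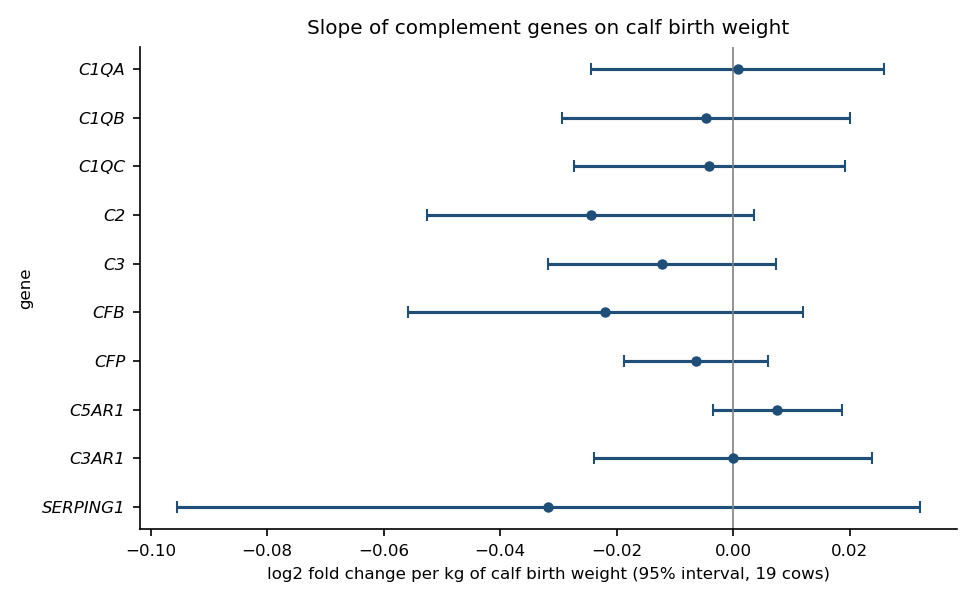
Slope of each of the 10 genes on calf birth weight (horizontal axis, log2 fold change per kg, from edgeR in 19 cows), points with 95% intervals and a vertical line at 0. All 10 intervals cross 0, 8 of the points lie below it, and SERPING1 has the widest interval. Of these 8, C1QB, C1QC and C3AR1 had slopes above 0 in the fit without the recipient of the 56 kg calf, which is not drawn.

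The rest of the pathway was described with a list of 42 other complement genes. Of these, 39 were in the counts and 23 were tested, while 16 were too low, including C1R, C8B and MBL2 with no count in any cow. The 3 with the most counts, an order that is not corrected for transcript length, were CALR, ITGB2 and CD55. CALR, calreticulin, which binds C1q on cell surfaces, averaged 710 ± 67.2 CPM (SD, n = 20). ITGB2, the beta chain of complement receptors 3 and 4, averaged 661 ± 55.3 CPM, and CD55, which speeds the decay of C3 convertases, 616 ± 68.2 CPM (both SD, n = 20).

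An unadjusted p below 0.05 was found in 3 of the 23, or 13%, close to the 13.9% of all genes, and none of the 23 had an FDR below 0.05 by edgeR. The slope was below 0 in 13 of 23. CD46, a membrane cofactor for the cleavage of C3b, had a slope of 0.0149 ± 0.0045 (SE) per kg (unadjusted p = 0.00353 and FDR 0.175 by edgeR). Its level was between 180 and 323 CPM with a median of 200 CPM, the highest in the recipient of the 56 kg calf. ITGAM, the alpha chain of complement receptor 3, had a slope of 0.0213 ± 0.0071 (SE) per kg (unadjusted p = 0.00679 and FDR 0.198 by edgeR), and a level between 290 CPM and 631 CPM with a median of 388 CPM. C9, which forms the membrane pore, had a slope of -0.0643 ± 0.0257 (SE) per kg (unadjusted p = 0.0207 and FDR 0.266 by edgeR) at a median level of 0.62 CPM. Both CD46 and ITGAM were highest in the recipient of the 56 kg calf and second highest in that of the 46 kg calf. Without the recipient of the 56 kg calf, 1605 of 16159 of all genes had an unadjusted p below 0.05 by edgeR. Of the 23, CD46 alone did, although its slope was then 0.0082 per kg (p = 0.0317). The slope of ITGAM was 0.0146 (p = 0.0535) and that of C9 -0.0565 (p = 0.0509). With the monocyte score as a covariate the slopes of CD46, ITGAM and C9 were 0.0116, 0.0177 and -0.0619 per kg (unadjusted p = 0.00591, 0.016 and 0.0295 by edgeR), and with the neutrophil score 0.0127, 0.0187 and -0.0632 per kg (unadjusted p = 0.00852, 0.0149 and 0.0283 by edgeR). With all 20 cows the slope of C9 was -0.0358 per kg (unadjusted p = 0.0707 by edgeR).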

How the data were processed

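RNA from whole blood of 20 cows was sequenced as 1 library per cow. Per the labels and the methods, the authors used Trimmomatic for trimming, STAR 2.7.0b for alignment to ARS-UCD1.3 and featureCounts (Subread 2.0.3) for counting, and deposited raw counts by Entrez identifier. The library kit is named as SMARTer Stranded in the labels and as Truseq in the methods, and strand and multi-mapping settings are not given in the sources used here. Total counts were between 24632077 and 39892111, counting errors cover counting alone, and no library repeated another (chi-square per degree of freedom of at least 12.2 over 190 pairs). Symbols came from the ARS-UCD2.0 table, which matched all 37063 identifiers.

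The slope on BW was fitted with edgeR 4.0.16 (R 4.3.3), TMM and the quasi-likelihood test in 19 cows, keeping a gene that reached 10 counts in 5 or more cows, and adjusted over 16206 genes. Alternatives were the Wald test of DESeq2 1.42.0, voom in limma 3.58.1, changed filters or size factors, the inclusion of all 20 cows, ranks of BW, covariates from marker scores, and omission of each cow in turn. On simulated counts for 16206 genes, 200 of them changed by 0.06 per kg, edgeR recovered 82.5% with 4.62% false calls. DESeq2 recovered 84% with 11.58% false calls, and voom 81.5% with 3.55%. The simulated slope was larger in size than any fitted for the 10 genes, so recovery of slopes of their size was not tested. Correlations used log2 CPM with a prior count of 2 and two-sided permutation tests with 100000 resamples. Named genes were the 10, the 3 genes most like each, of the other complement genes the 3 with the highest mean CPM and those with an unadjusted p below 0.05, and the most abundant or absent markers. A gene that this rule selects, and the alternative that turned on it, are not reported here. Neighbouring genes were named after their values were seen. The genes and lists were chosen with earlier results of these data known. The cows form 1 group with no batch in the labels, so no comparison within batches was made, and p-values rest on the spread between cows. Correlations ran in Python 3.11.15 with scipy 1.17.1 and numpy 2.4.6, and plots in matplotlib 3.10.9.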

Additional observations from a re-analysis of the deposited data

How the results depend on the processing

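None of the 10 genes had an FDR below 0.05 under any of 31 alternatives (309 slopes, lowest FDR 0.137). Over all genes tested, 189 of 23087 passed with DESeq2, 147 of 23087 without a count filter and 34 of 16115 without the recipient of the 32 kg calf. In every other alternative at most 4 of all genes passed, so the result for the 10 genes is close to that of all genes. Of the 10 genes, the number with an unadjusted p below 0.05 was 1 with the neutrophil score as a covariate (C5AR1) and 0 to 1 with each cow left out. With the neutrophil score as a covariate, 2100 of 16206 of all genes had such a p. The slope of C1QA was -0.00012 per kg with voom. That of C1QB was 0.00051 with all 20 cows and 0.00061 with the monocyte score, and that of C1QC 0.000598 and 0.000856. The slope of C3AR1 was 0.00037 with DESeq2, 0.0011 with voom, 0.00067 without a count filter, 0.00036 with median-of-ratios factors, 0.00026 with upper-quartile factors, 0.00024 with all 20 cows, and 0.0115, 0.00600 and 0.00077 with the interferon, monocyte and neutrophil scores. With each cow left out, these slopes ranged from -0.0044 to 0.0098 for C1QA, -0.0098 to 0.0045 for C1QB, -0.0084 to 0.0054 for C1QC and -0.0058 to 0.0052 for C3AR1. By edgeR the lowest unadjusted p for these genes was 0.403 with each cow left out and 0.381 with a marker score as a covariate. No interval was computed with DESeq2 or voom. Other complement genes with an unadjusted p below 0.05 numbered 1 (without the recipient of the 56 kg calf) to 5 (without that of the 32, 37 or 55 kg calf). Over all genes, 1605 of 16159 had such a p without the recipient of the 56 kg calf, against 2247 of 16206 in the main test. Without those of the 32, 37 and 55 kg calves it was 2464 of 16115, 2096 of 16119 and 2182 of 16139. Pairs of the 10 genes past the threshold numbered 15 to 21. Gene and score pairs numbered 2 (without the recipient of the 56 kg calf) to 8, with 3 without that of the 46 kg calf and 4 without that of the 49.5 or 50 kg calf. The cause was not tested. No value for SERPING1 could be had with at least 1 CPM in 10 cows. No paired analysis was possible because all cows form 1 group. At a median of 35 counts, SERPING1 limits what can be read from it.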

Other observations

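Low counts in these files were more often even than odd. Over all genes and cows a count of 2 occurred 10846 times and a count of 1 3918 times, and 59.3% of the counts from 1 to 20 were even. Whether the 2 mates of a pair were counted separately is not given in the sources used here, and this bears on the counting error of every gene and on the spread that counting gives to the ratios of the C1q chains and of C2 to CFB.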
